A study of Homo sapiens with 24 samples.

Results

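The 38 genes described here encode the transporters and enzymes of glycolysis and products of the response to low oxygen, and they were taken by symbol from the 23207 genes in the count tables. They comprise 3 transporters (SLC2A1, SLC16A1, SLC16A3), 15 enzymes from hexokinase to lactate dehydrogenase, and 4 regulators of glycolytic flux (PFKFB2, PFKFB3, PFKFB4, PDK1). They also comprise HIF1A with 2 prolyl hydroxylases (EGLN1, EGLN3), 5 pH-regulating or secreted hypoxia targets (CA9, CA12, VEGFA, ADM, ANGPTL4), 2 mitophagy receptors (BNIP3, BNIP3L) and 6 other intracellular hypoxia targets. They were matched by symbol alone, with no cut on level, from a list chosen with earlier results of these data known.

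RNA was sequenced from 24 libraries of LNCaP, a hormone-sensitive prostate cancer cell line, in 8 groups of 3. Per the labels, lentivirus at an MOI of 10 (viral particles per cell) delivered an shRNA against SIRT1 or a scrambled, non-targeted control hairpin (NTC). Stable knockdown clones were selected in 1 µg/ml and kept in 0.5 µg/ml puromycin. In medium with fetal bovine serum (FBS), which holds androgens, the groups were the knockdown named shSIRT1 and NTC. In charcoal-stripped serum (CSS), from which androgens are depleted, the groups were the knockdown named 10 and NTC, each after 48 h in FBS medium and 24 h in CSS medium. Each of these then had 24 h of vehicle, of 1 nM dihydrotestosterone (DHT, an androgen), or of 1 nM DHT with 10 µM enzalutamide, an antagonist of the androgen receptor. Whether the populations shSIRT1 and 10 share a hairpin or a clone is not stated, and no comparison parts SIRT1 loss from a difference between clones. It is likewise not stated that the 3 libraries of a group came from separate cultures, so p-values measure the spread between these libraries, which may be technical.

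Glycolysis breaks glucose down to pyruvate in the cytosol, and lactate dehydrogenase interconverts pyruvate and lactate. When oxygen is low, prolyl hydroxylases of the EGLN family stop marking the HIF-1α protein for destruction, and HIF-1 then binds short RCGTG elements and drives glucose uptake, glycolytic enzymes, PDK1, VEGFA and mitophagy receptors. HIF-1α is therefore controlled largely at the protein level, which RNA does not show. In prostate cells the androgen receptor is also known to raise the transcription of glycolytic genes, HK2 among them, and SIRT1 is a deacetylase whose reported substrates include HIF-1α.

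Promoter windows from RefSeq (GRCh38.p14, 250 bases before to 50 after the start) were matched by symbol for 34 of the 38 genes, with SLC16A1, PFKFB2, VEGFA and BNIP3L unmatched. The letters ACGTG or GCGTG, the core of the hypoxia response element, were searched on both strands, where they read CACGT and CACGC in reverse. At least 1 was found in 24 of 34 windows (70.6%), against 13213 of 27305 windows of the whole table (48.4%). ACGTG alone was in 41.2% of the member windows and 21.6% of all, and GCGTG in 47.1% and 36.3%. The E-box CACGTG, which holds ACGTG on both strands, was in 14.7% and 7.43%. The median GC content was 69.2% in member windows and 58.3% in all, a difference whose part in these shares was not tested. A match describes letters and is no evidence of binding.

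Windows of 5 genes are shown because their genes had the firmest knockdown differences in stripped serum, with matches in capitals. They are LDHB (chr12:21657793-21658092, minus strand, 1 match), CA12 (chr15:63381797-63382096, minus, 2), HK2 (chr2:74833877-74834176, plus, 3), ENO1 (chr1:8878637-8878936, minus, 2) and PFKP (chr10:3067720-3068019, plus, 0).
LDHB: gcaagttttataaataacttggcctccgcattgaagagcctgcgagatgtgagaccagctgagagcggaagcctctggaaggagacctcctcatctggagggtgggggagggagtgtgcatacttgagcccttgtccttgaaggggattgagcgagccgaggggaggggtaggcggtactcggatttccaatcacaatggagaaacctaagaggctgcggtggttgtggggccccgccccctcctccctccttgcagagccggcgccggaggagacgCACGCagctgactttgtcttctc
CA12: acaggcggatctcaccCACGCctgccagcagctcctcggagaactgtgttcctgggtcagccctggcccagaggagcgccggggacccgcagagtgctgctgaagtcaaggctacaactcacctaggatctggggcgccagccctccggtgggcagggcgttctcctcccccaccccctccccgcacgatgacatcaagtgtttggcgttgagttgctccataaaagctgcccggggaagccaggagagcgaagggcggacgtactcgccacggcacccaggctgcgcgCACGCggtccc
HK2: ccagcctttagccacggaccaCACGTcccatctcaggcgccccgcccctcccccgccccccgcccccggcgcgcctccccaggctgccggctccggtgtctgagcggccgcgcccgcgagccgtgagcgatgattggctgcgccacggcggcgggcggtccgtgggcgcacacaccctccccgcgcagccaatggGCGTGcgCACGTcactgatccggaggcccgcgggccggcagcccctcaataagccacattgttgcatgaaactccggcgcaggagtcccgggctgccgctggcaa
ENO1: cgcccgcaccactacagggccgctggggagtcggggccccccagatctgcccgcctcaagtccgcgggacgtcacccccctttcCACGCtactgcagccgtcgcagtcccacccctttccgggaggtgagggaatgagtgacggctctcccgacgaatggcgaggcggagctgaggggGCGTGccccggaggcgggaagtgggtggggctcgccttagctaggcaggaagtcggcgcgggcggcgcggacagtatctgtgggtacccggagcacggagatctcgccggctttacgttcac
PFKP: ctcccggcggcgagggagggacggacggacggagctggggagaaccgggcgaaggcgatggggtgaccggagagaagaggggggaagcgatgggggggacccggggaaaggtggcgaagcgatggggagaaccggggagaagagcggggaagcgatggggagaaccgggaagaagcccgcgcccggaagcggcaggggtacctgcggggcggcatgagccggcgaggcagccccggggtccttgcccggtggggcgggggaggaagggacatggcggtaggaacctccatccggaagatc
HK2 carries matches starting at positions -229, -55 and -48 from the start, while the single LDHB match lies 28 bases after it and PFKP has none of these letters in its window.

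Libraries held 11894023 to 14196127 counts in FBS and 25236353 to 35108310 in CSS. SIRT1 stood at 8.43, 8.69 and 7.21 CPM (counts scaled to library size) in shSIRT1 cells, against 39.98, 37.96 and 36.8 CPM in NTC cells (4.71-fold lower, adjusted p = 8e-06). In stripped serum it was 2.93- to 3.14-fold lower in knockdown 10 than in NTC under the 3 treatments. KLK3, which encodes prostate-specific antigen, checked the hormone: DHT raised it 15.7-fold in knockdown 10 and 9.37-fold in NTC. All 9 LNCaP marker genes exceeded 1 CPM and summed to 3700 to 4760 CPM, while markers of basal cells or other prostate lines, of fibroblasts, and of leukocytes and endothelium summed to 8.19 to 53.8, 11.2 to 30.7 and 8.32 to 18.6 CPM (led by VIM, COL1A1 and CD68, with TP63 at 0 counts in FBS and COL1A2 and CD3E at 0 in CSS). In FBS, libraries 1 and 2 of each group differed little (mean chi-square over genes of 1.55 for the NTC pair and 1.6 for the shSIRT1 pair), and each stood further from library 3 (8.89 to 9.39); whether such pairs share a culture is not stated.

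The members span a wide range of levels. Per transcript length, in NTC cells with vehicle, GAPDH came first at 3946 ± 140.1 TPM (counts scaled for transcript length and library size, mean ± SD, n = 3), followed by TPI1 at 1086 ± 37.1, ALDOA at 834 ± 39.1 and ENO1 at 815 ± 27.0 TPM. ALDOA and ENO1 lay within each other's spread. LDHB (664 ± 18.9 TPM) stood above LDHA (419.6 ± 35.2 TPM), so the heart-type subunit gene was the more abundant of the pair. HK1, the housekeeping hexokinase, was at 84.04 ± 2.69 TPM, and HK2, the inducible one, at only 6.94 ± 0.381 TPM. Among the hypoxia targets BNIP3 (237 ± 20.6 TPM), DDIT4 (179.9 ± 14.9 TPM) and BNIP3L (168 ± 11.6 TPM) were the highest. The lactate exporter SLC16A3 was near its detection limit at 0.740 ± 0.132 TPM. CA9, a classical hypoxia-induced carbonic anhydrase, never exceeded 3 counts in a library, and ANGPTL4 never exceeded 8. These 2 genes were tested in neither medium, ADM was not tested in FBS, and 35 members were tested in FBS and 36 in CSS. Expected counts lay within 0.005 of a whole number in none of the 24 libraries for GAPDH, P4HA1 and MXI1, and in 1 to 6 libraries for 14 other members (GPI, PFKM, ALDOA, ALDOC, TPI1, PGK1, PGAM1, ENO1, PFKFB2, HIF1A, EGLN1, CA12, BNIP3L, DDIT4). The same was true in only 7 libraries for LDHA, LDHB and SLC16A1, in 8 for PFKL and BNIP3, and in 9 for HK2 and PDK1. Some reads of all these genes were shared out between genes by RSEM, so their levels are less certain.

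In stripped serum most of the glycolytic chain was lower in knockdown 10 than in NTC. With vehicle 20 of the 36 tested members fell and 3 rose (VEGFA, BNIP3L, KDM3A), where 19.1% of all tested genes fell, 15.5% rose and 34.6% were called in either direction (edgeR quasi-likelihood test, Benjamini-Hochberg adjusted p under 0.05). Under DHT 22 fell and 3 rose, against 23.5%, 19.5% and 43% of all genes. Under DHT with enzalutamide 22 fell and 4 rose, against 19.2%, 15.4% and 34.6%. The median member log2 fold change was -0.27 with vehicle, -0.33 under DHT and -0.29 under DHT with enzalutamide, while the median of all genes was 0 in each. Of the members, 18 fell in all 3 media, 3 rose in all 3 and none was called in opposite directions, where 14% of all tested genes fell in all 3 and 10% rose in all 3. Of the 36 tested members 8 were called in none of the 3, against 46.2% of all tested genes. The 3 comparisons use different libraries but the same 2 cell populations.

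**Figure D1:**
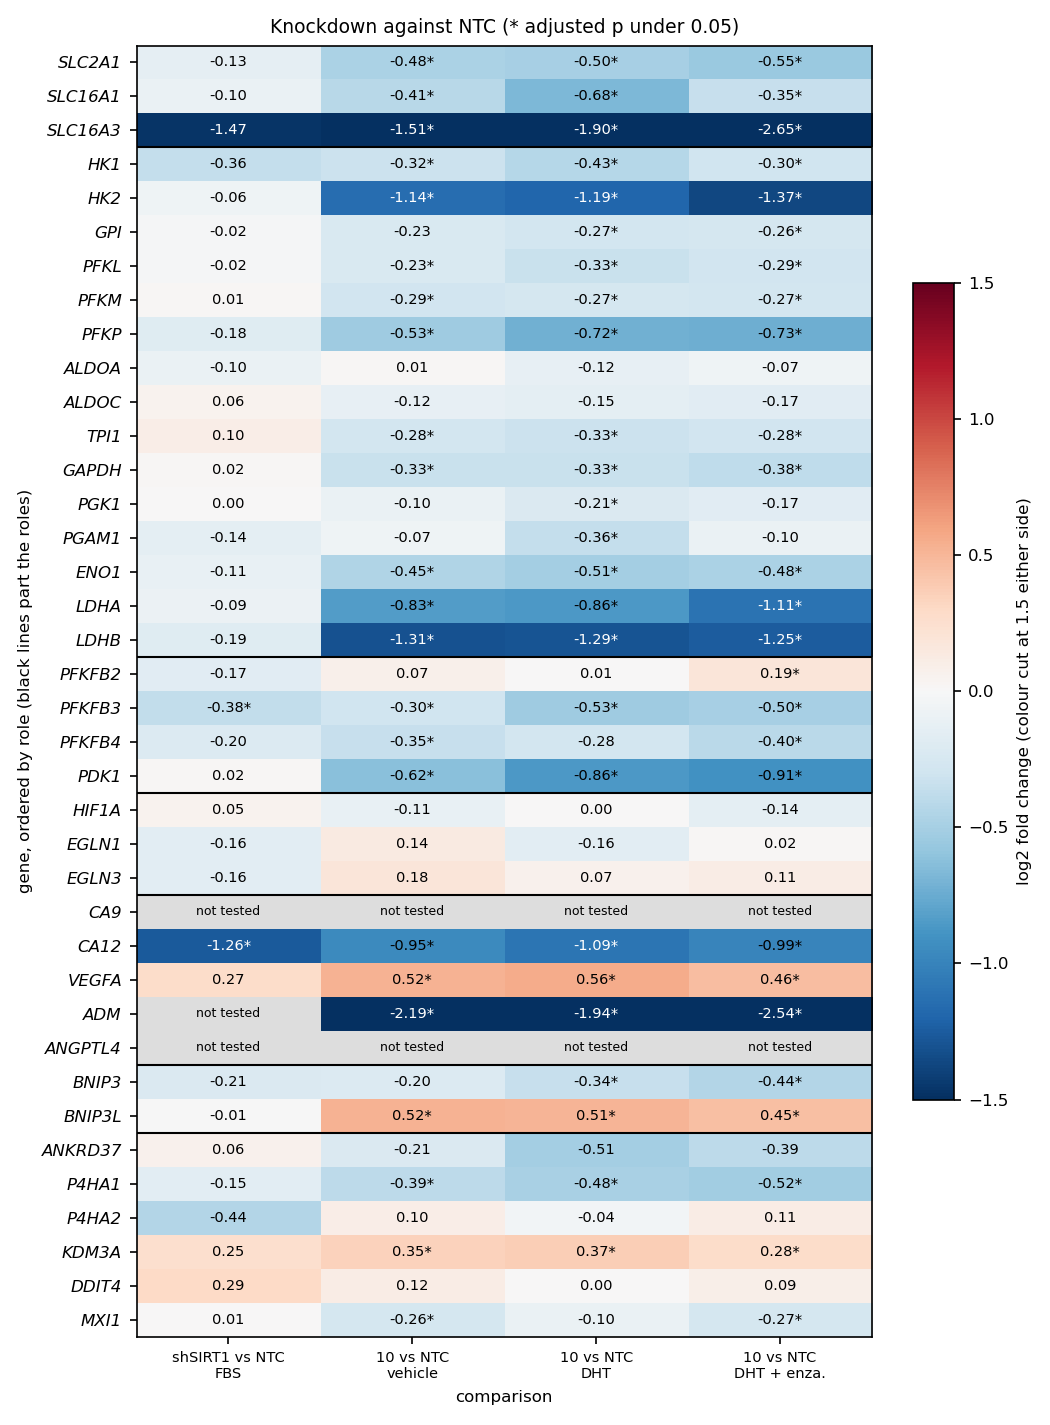
Heat map of log2 fold changes, knockdown over NTC, for the 38 genes (rows, ordered by role with black lines between roles) in FBS and in CSS with vehicle, DHT, or DHT with enzalutamide (columns). Each cell prints its value, an asterisk marks adjusted p under 0.05, and grey cells were not tested. The transporters and most enzymes are blue (lower) in CSS, LDHB at -1.31 with vehicle, while VEGFA, BNIP3L and KDM3A are red (higher).

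The glucose importer SLC2A1 (GLUT1) had 23.3, 24.2 and 24.1 CPM in the 3 knockdown 10 libraries with vehicle, against 33.9, 29.6 and 36.1 CPM in NTC. The lactate and pyruvate carrier SLC16A1 (MCT1) had 109.8, 119 and 119 CPM in knockdown 10, against 167, 151 and 145 CPM in NTC. Every knockdown library lay below every NTC library for both, and the log2 fold changes were -0.48 (SE 0.0999, adjusted p = 0.00118) for SLC2A1 and -0.41 (SE 0.0621, adjusted p = 5.82e-05) for SLC16A1. SLC2A1 was also lower under DHT (-0.50) and DHT with enzalutamide (-0.55), as was SLC16A1 (-0.68 and -0.35). The exporter SLC16A3 (MCT4), scarce throughout, had 0.296 ± 0.142 CPM in knockdown 10 and 0.855 ± 0.170 CPM in NTC with vehicle (SD, n = 3 each). Its log2 fold changes of -1.51, -1.90 and -2.65 under vehicle, DHT and DHT with enzalutamide passed the test but rest on few counts.

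Lactate dehydrogenase B, which favours the conversion of lactate to pyruvate, showed the firmest difference of all members. LDHB had 195, 171 and 186 CPM in knockdown 10 with vehicle, against 486, 436 and 449 CPM in NTC. Under DHT it had 234, 205 and 216 CPM in knockdown 10, against 569.9, 509 and 529 CPM in NTC. Under DHT with enzalutamide it had 196, 170 and 181 CPM in knockdown 10, against 423, 443 and 437 CPM in NTC. The groups were far apart in each medium, 2.48-fold with vehicle, 2.45-fold under DHT and 2.38-fold under DHT with enzalutamide (adjusted p = 4.59e-10, 3.38e-10 and 7e-10).

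LDHA, the muscle-type subunit that favours lactate production and a textbook HIF target, was lower too. It had 322, 276 and 289 CPM in knockdown 10 with vehicle, against 597, 489 and 493 CPM in NTC, a 1.78-fold difference (adjusted p = 0.000264). Under DHT it had 581, 334 and 367 CPM in knockdown 10, against 838, 732 and 757 CPM in NTC. Library 1 of the DHT-treated knockdown stood well above its fellows, yet still below all 3 NTC libraries, and the fold was 1.82 (adjusted p = 0.000134). Under DHT with enzalutamide it had 287, 250.1 and 267 CPM in knockdown 10, against 558, 626 and 555 CPM in NTC, 2.16-fold (adjusted p = 1.7e-05).

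HK2, which traps glucose in the cell as glucose 6-phosphate, had 12.3, 15.5 and 13.3 CPM in knockdown 10 with vehicle, against 30.4, 28.5 and 31.4 CPM in NTC. Under DHT it had 31.8, 18.2 and 20.2 CPM in knockdown 10, against 59.3, 50.7 and 49.8 CPM in NTC. Under DHT with enzalutamide it had 12.6, 15.9 and 14.8 CPM in knockdown 10, against 36.2, 38.5 and 37.4 CPM in NTC. No library of the 2 cell populations overlapped within a medium, although library 1 of the DHT-treated knockdown was again high. HK2 was 2.2-, 2.28- and 2.58-fold lower under vehicle, DHT and DHT with enzalutamide (adjusted p = 1.81e-05, 4.48e-06 and 2.57e-06). Its isozyme HK1 fell too, with log2 fold changes of -0.32, -0.43 and -0.30.

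The 3 phosphofructokinase genes, which encode the committing step, fell in all 3 media. PFKP, the platelet-type subunit, had 29.4, 33.5 and 33.3 CPM in knockdown 10 with vehicle, against 44.4, 46.04 and 48.8 CPM in NTC (log2 fold change -0.53, adjusted p = 6.66e-05). The liver-type PFKL was at -0.23, -0.33 and -0.29 and the muscle-type PFKM at -0.29, -0.27 and -0.27 under vehicle, DHT and DHT with enzalutamide. ENO1, which encodes enolase, had 720.1, 748 and 749 CPM in knockdown 10 with vehicle, against 1044, 962 and 1023 CPM in NTC (1.37-fold lower, adjusted p = 1.77e-05). GAPDH, often used as a reference gene, had 2271, 1970 and 2182 CPM in knockdown 10 with vehicle, against 2866, 2547 and 2677 CPM in NTC (1.26-fold lower, adjusted p = 0.00361). TPI1, the triose phosphate isomerase, was at -0.28, -0.33 and -0.29. These differences did not run evenly along the chain: ALDOA and ALDOC, the aldolases, passed in no medium (ALDOA 0.02, -0.12 and -0.07), PGK1 and PGAM1 passed under DHT but not in the other 2 media (-0.21 and -0.36), and GPI passed under DHT and under DHT with enzalutamide (-0.27 and -0.26). With the replicate block PGK1 also passed under DHT with enzalutamide (adjusted p = 0.00502) and GPI with vehicle (adjusted p = 0.00965). The PFKL call with vehicle was lost without knockdown library 2 (adjusted p = 0.0642) and the PGK1 call under DHT without knockdown library 3 (adjusted p = 0.052). The GPI calls were lost under DHT without knockdown library 2 or 3 or NTC library 1 (adjusted p = 0.0558 to 0.0847), and with enzalutamide without any library but knockdown library 1 (adjusted p = 0.0503 to 0.115). In all, 10, 13 and 11 of the 15 enzyme genes fell under vehicle, DHT and DHT with enzalutamide, and none rose.

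**Figure D2:**
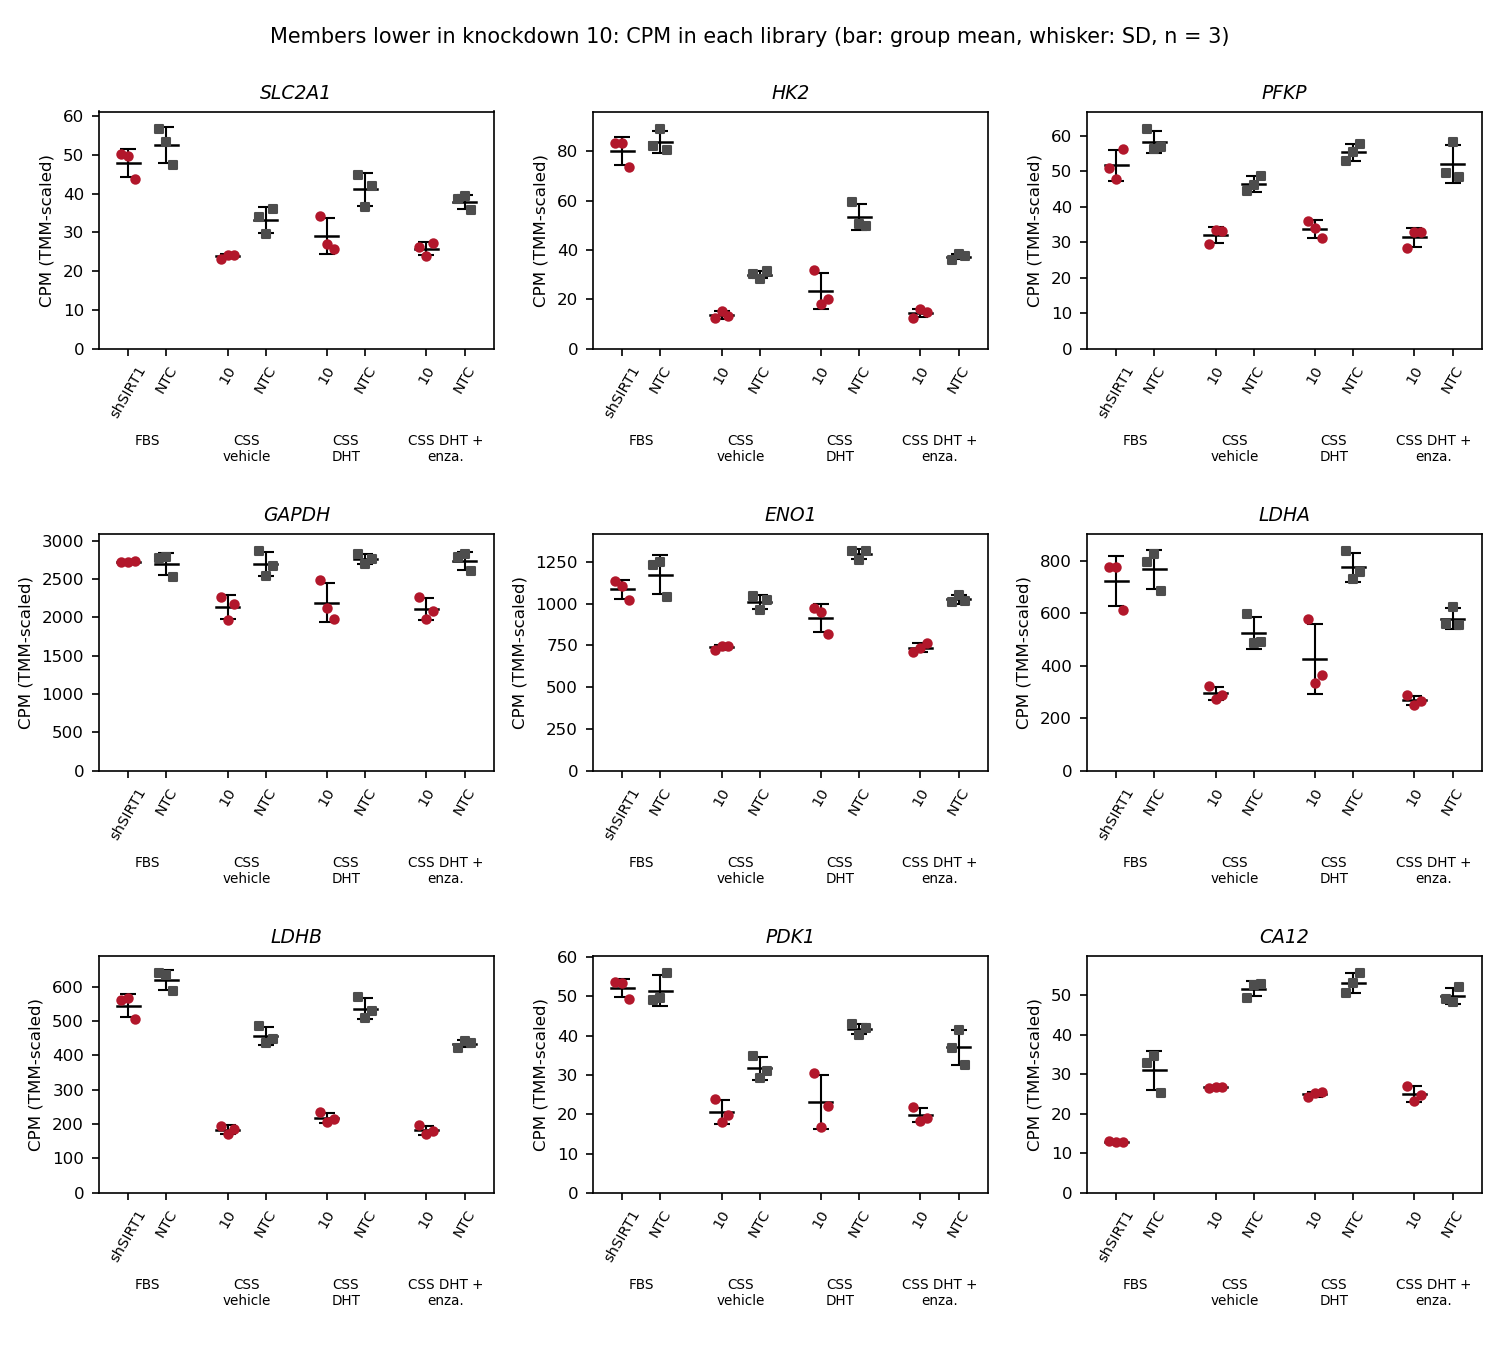
TMM-scaled CPM (y axes, linear from 0) of 9 members in every library, by cell population and medium (x axes). Red circles are knockdown libraries, grey squares NTC libraries, horizontal bars group means and whiskers SD (n = 3). In CSS the red points lie below the grey ones in each gene shown, whereas in FBS they overlap in 7 of the 9, LDHB and CA12 being the exceptions.

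Among the regulators of flux, PDK1, the kinase that keeps pyruvate out of the citric acid cycle, had 23.96, 17.95 and 19.8 CPM in knockdown 10 with vehicle, against 34.9, 29.3 and 30.9 CPM in NTC. PDK1 was 1.54-, 1.81- and 1.88-fold lower under vehicle, DHT and DHT with enzalutamide (adjusted p = 0.00439, 0.000225 and 0.000206). PFKFB3, which makes the phosphofructokinase activator fructose 2,6-bisphosphate, had 18.1, 17.5 and 16.95 CPM in knockdown 10, against 23.2, 20.2 and 21.5 CPM in NTC with vehicle (-0.30, adjusted p = 0.00759). PFKFB4 fell with vehicle (-0.35) and under DHT with enzalutamide (-0.40), and with the block also under DHT (-0.28, adjusted p = 0.0186). Its vehicle call was lost without any library but NTC library 3 (adjusted p = 0.0507 to 0.15), and the other without library 2 of either population (adjusted p = 0.0777 for knockdown and 0.0719 for NTC). PFKFB2 was instead higher under DHT with enzalutamide (0.19, adjusted p = 0.0296), a call lost without knockdown library 2 or 3 or NTC library 1 or 2 (adjusted p = 0.0707 to 0.111).

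The transcript of HIF1A itself passed the test in none of the 3 media. HIF1A had 200, 196 and 206 CPM in knockdown 10 with vehicle, against 203, 224 and 223 CPM in NTC, with overlapping libraries. Its log2 fold changes of -0.11 (SE 0.0604) with vehicle, 0.003 (SE 0.0605) under DHT and -0.14 (SE 0.0604) under DHT with enzalutamide did not pass, although under DHT with enzalutamide the libraries did not overlap (adjusted p = 0.166, 0.975 and 0.0745). In a fit with replicate as a block, the last of these reached adjusted p = 0.0293. The hydroxylase genes EGLN1 and EGLN3 did not pass in any of the 3 media (-0.16 to 0.14 and 0.07 to 0.18). With the block EGLN1 passed with vehicle and, in the opposite direction, under DHT (0.14 and -0.16), and EGLN3 passed with vehicle (0.18, adjusted p = 0.0347).

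Hypoxia targets outside glycolysis divided in direction. CA12, a membrane carbonic anhydrase that regulates pH, had 26.4, 26.8 and 26.9 CPM in knockdown 10 with vehicle, against 49.3, 52.6 and 52.8 CPM in NTC. Under DHT it had 24.2, 25.1 and 25.4 CPM in knockdown 10, against 50.5, 53.0 and 55.5 CPM in NTC. These libraries varied little within a group, and CA12 was 1.93-, 2.13- and 1.99-fold lower under vehicle, DHT and DHT with enzalutamide (adjusted p = 2.71e-09, 4.08e-10 and 1.77e-09). ADM, which encodes the vasodilator adrenomedullin, had 0.643, 0.625 and 0.627 CPM in knockdown 10, against 2.15, 3.53 and 3.02 CPM in NTC with vehicle, the largest log2 fold change of any member there (-2.19, SE 0.304, adjusted p = 2.59e-05). P4HA1, a collagen prolyl hydroxylase subunit, fell in all 3 media (-0.39, -0.48 and -0.52), whereas its relative P4HA2 did not pass in any (0.10, -0.04 and 0.11). MXI1, a repressor related to the MYC partner MAX, fell with vehicle (-0.26) and under DHT with enzalutamide (-0.27). Its vehicle call was lost without knockdown library 1 or NTC library 2 (adjusted p = 0.105 and 0.0927), and the other without knockdown library 1 or 2 or NTC library 2 or 3 (adjusted p = 0.0597 to 0.0777). ANKRD37 and the mTORC1 inhibitor DDIT4 were called in no medium, although with the block ANKRD37 passed under DHT (-0.52, adjusted p = 0.0359).

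VEGFA, the main angiogenic growth factor, was higher: 86.9, 157 and 123 CPM in knockdown 10 with vehicle, against 84.5, 86.6 and 84.4 CPM in NTC. Library 1 of the knockdown barely exceeded the highest NTC library, and without library 2 the call was lost (adjusted p = 0.0974, against 0.013 with all libraries). The log2 fold changes were 0.52, 0.56 and 0.46 under vehicle, DHT and DHT with enzalutamide, the last lost without knockdown library 2 or 3 or NTC library 1 or 3 (adjusted p = 0.0579 to 0.145). The histone demethylase gene KDM3A rose in all 3 media (0.35, 0.37 and 0.28), with 85.1, 102 and 94.5 CPM in knockdown 10 and 69.4, 76.8 and 74.9 CPM in NTC with vehicle.

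The 2 mitophagy receptors parted from each other. BNIP3L (NIX) had 447, 529.8 and 519 CPM in knockdown 10 with vehicle, against 333, 362 and 346 CPM in NTC. Under DHT it had 345, 373 and 371 CPM in knockdown 10, against 245, 257 and 265 CPM in NTC. Every knockdown library exceeded every NTC library in both, and the folds were 1.44 and 1.42 (adjusted p = 4.3e-05 and 4.29e-05), with 1.36 under DHT with enzalutamide (adjusted p = 0.000204). BNIP3 was instead lower under DHT (-0.34, adjusted p = 0.0126) and under DHT with enzalutamide (-0.44, adjusted p = 0.0032), and did not pass with vehicle (-0.20, adjusted p = 0.141, or 0.0257 with the block). The BNIP3 libraries overlapped under DHT. Its DHT call was lost without knockdown library 2 or 3 (adjusted p = 0.0794 and 0.0572).

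**Figure D3:**
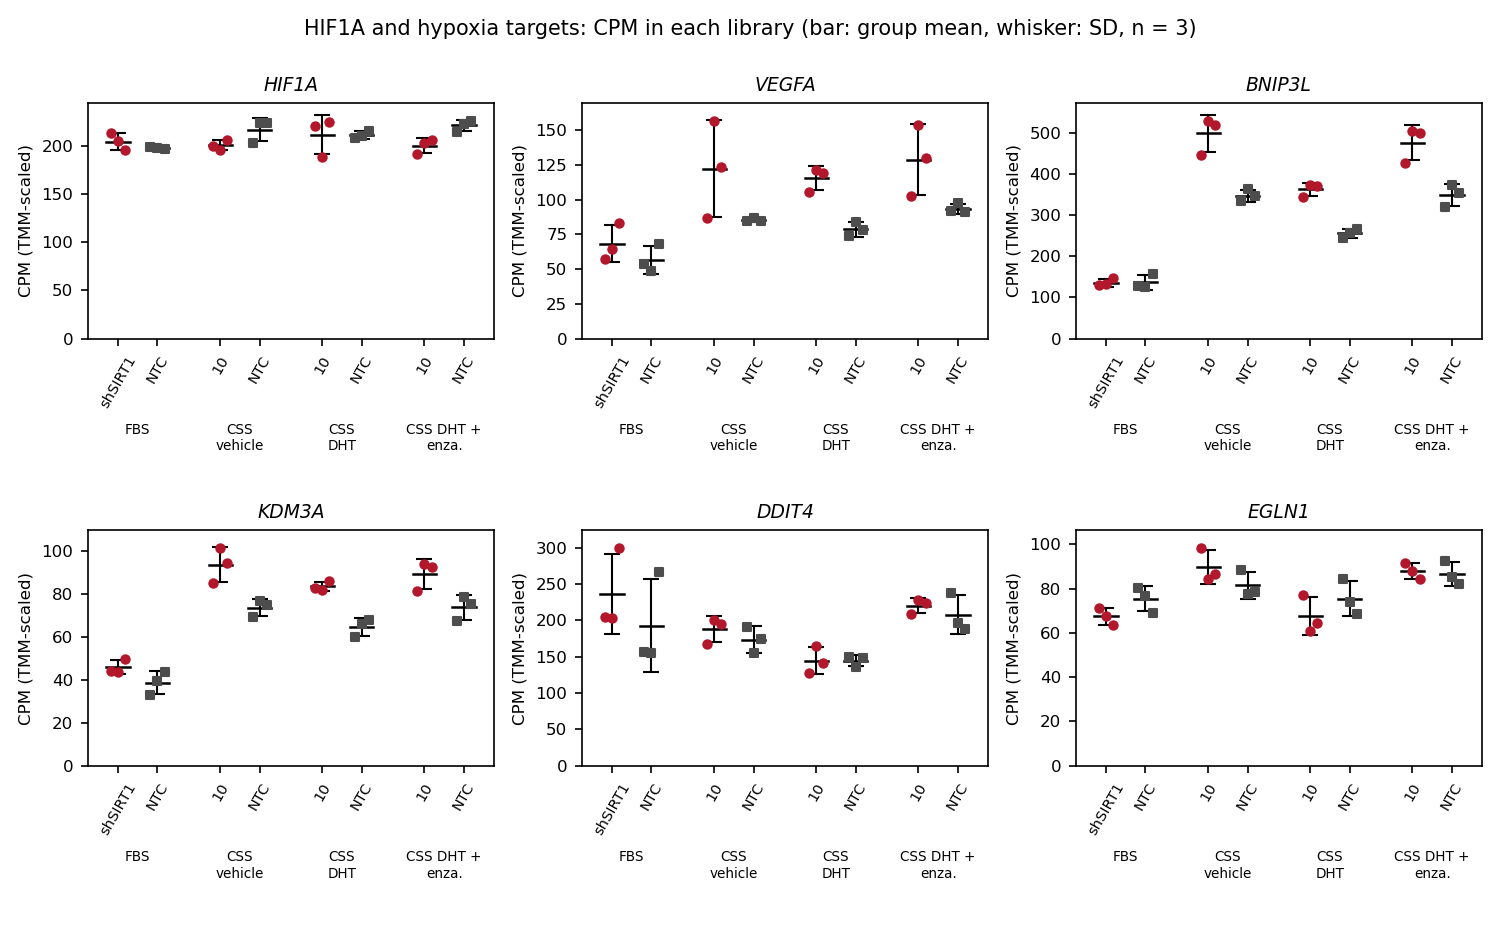
TMM-scaled CPM (y axes, linear from 0) of HIF1A, VEGFA, BNIP3L, KDM3A, DDIT4 and EGLN1 in every library, by cell population and medium (x axes); red circles are knockdown libraries, grey squares NTC libraries, bars means and whiskers SD (n = 3). HIF1A passed the test in no CSS medium, VEGFA, BNIP3L and KDM3A are higher in knockdown 10, and BNIP3L dips under DHT in both cell populations.

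Summed, the 38 genes took 0.857 ± 0.023% of counts in knockdown 10 and 1.03 ± 0.035% in NTC with vehicle. They took 0.872 ± 0.069% and 1.11 ± 0.01% under DHT and 0.847 ± 0.012% and 1.05 ± 0.034% under DHT with enzalutamide (SD, n = 3 each). The lower share in knockdown 10 held in every library of each medium. In bulk RNA, fewer cells that make a transcript and less transcript per cell cannot be told apart. LNCaP markers summed to 4240 to 4760 CPM in the knockdown 10 libraries and 3830 to 4130 CPM in the CSS NTC libraries. The list went both ways: with vehicle CDH1 (879.9 ± 47.3 CPM in knockdown 10 and 644 ± 20.6 CPM in NTC) and KRT8 (707 ± 12.2 and 529 ± 10.8 CPM) were higher. KLK3 (5.91 ± 0.931 CPM in knockdown 10 and 25.01 ± 2.11 CPM in NTC), KLK2 (2.48 ± 0.467 and 6.68 ± 1.52 CPM) and TMPRSS2 (33.7 ± 1.79 and 49.01 ± 5.01 CPM) were lower. Their part in the result was not tested.

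Among other genes of the same pathways SLC2A4, EPAS1 and TMEM45A fell with vehicle. Of 29 other tested genes of glycolysis and pyruvate metabolism, 27.6% were called with vehicle, 27.6% under DHT and 31% under DHT with enzalutamide. For 14 other HIF pathway genes the shares were 35.7, 42.9 and 42.9%, and for 39 other hypoxia targets 30.8, 30.8 and 35.9%, beside 34.6, 43 and 34.6% of all genes. Of the called glycolysis and pyruvate genes, those that moved furthest with vehicle were the insulin-responsive glucose transporter SLC2A4 (-1.15), the monocarboxylate carrier SLC16A7 (-0.77) and the pyruvate kinase gene listed as PKM2 (-0.45, 715 ± 12.8 CPM in knockdown 10 and 976 ± 44.6 CPM in NTC). Counts are per gene symbol, so the PKM2 entry does not part splice forms. Among HIF pathway genes EPAS1, which encodes HIF-2α, fell (-1.004, -0.92 and -1.09), while the hydroxylase EGLN2 (0.27) and the coactivator CREBBP (0.26) rose. Among the hypoxia targets TMEM45A fell (-1.74, -2.004 and -2.08) and HMOX1, heme oxygenase, rose with vehicle and DHT (0.60 and 0.65). EPAS1 and TMEM45A were scarce, so their changes rest on few counts. With vehicle EPAS1 stood at 1.02 CPM in knockdown 10 and 2.05 CPM in NTC, and TMEM45A at 0.555 and 1.87 CPM. Of the member genes, 63.9, 69.4 and 72.2% were called in the same 3 comparisons, a description of chosen lists that carries no test.

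**Figure D4:**
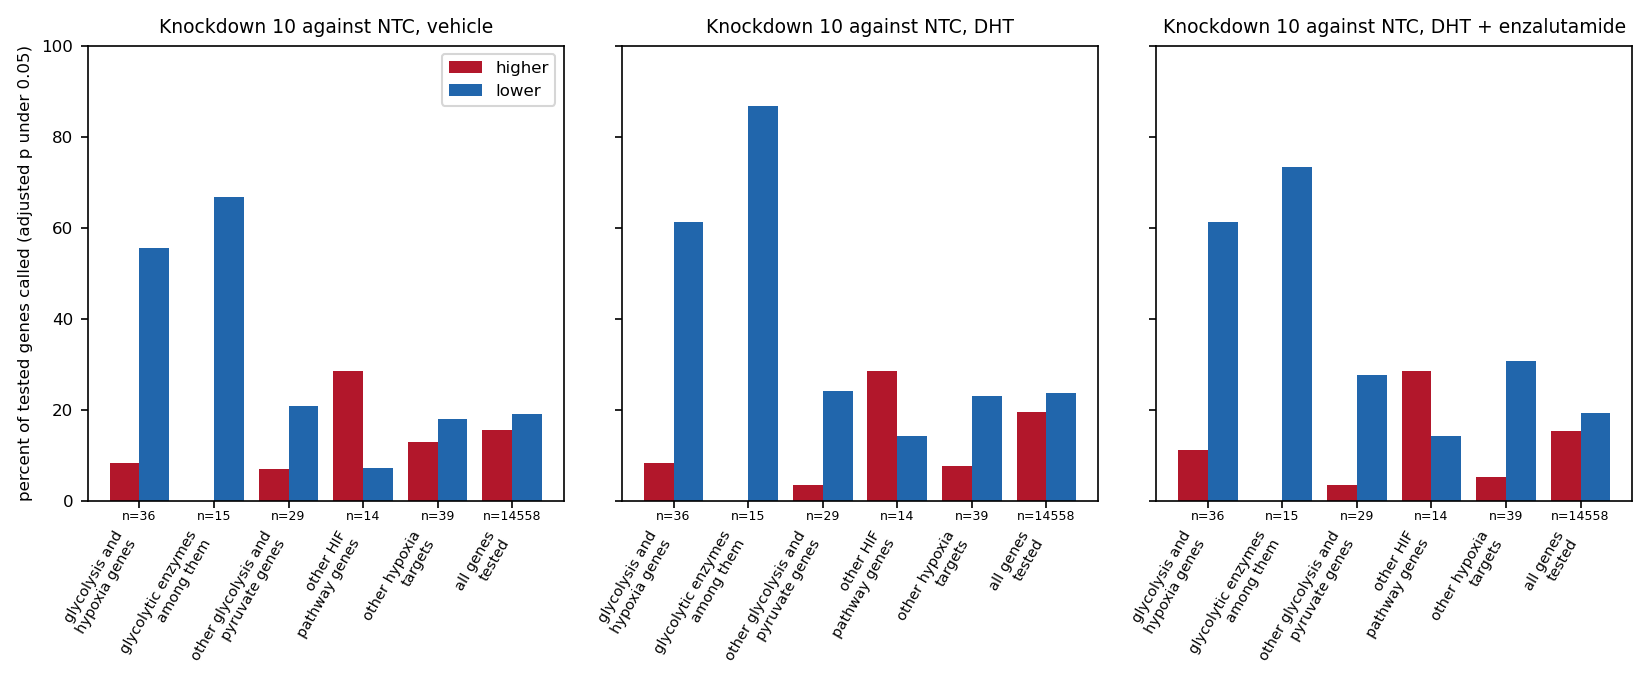
Percent of tested genes called higher (red) or lower (blue) in knockdown 10 against NTC (y axis, 0 to 100) for the member genes, the glycolytic enzymes among them, 3 lists of other pathway genes and all genes tested (x axis, n below each), in 3 panels for vehicle, DHT and DHT with enzalutamide. The blue bars of the members (20, 22 and 22 of 36) stand above those of all genes, and the enzymes have no red bar. The lists were chosen with earlier results of these data known and were not matched to all genes by level, so the contrast carries no test.

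In FBS medium few of the same genes differed between shSIRT1 and NTC cells past the threshold. Of 35 tested members 2 fell, CA12 and PFKFB3, and none rose, where 2.71% of all genes were called, 2.21% lower and 0.509% higher. The median member log2 fold change was -0.11, and that of all genes 0.01. CA12 had 13.1, 12.9 and 12.8 CPM in shSIRT1 cells, against 32.9, 34.7 and 25.3 CPM in NTC, 2.4-fold lower (adjusted p = 0.00134). PFKFB3 had 24.4, 26.1 and 25.1 CPM in shSIRT1 cells, against 35.2, 32.1 and 30.8 CPM in NTC (-0.38, adjusted p = 0.0402), a call lost without any single library but NTC library 3 (adjusted p = 0.0619 to 0.188). The groups did not overlap for either, and these 2 genes also fell in every CSS medium, as did 14% of all tested genes. The share of all genes that fell in FBS and in every CSS medium was not counted. LDHA had 778, 778 and 613 CPM in shSIRT1 cells, against 795, 826 and 684 CPM in NTC, and HK2 had 83.4, 83.5 and 73.7 CPM in shSIRT1 cells, against 82.1, 88.9 and 80.5 CPM in NTC. Both overlapped, with log2 fold changes of -0.09 (SE 0.106) and -0.06 (SE 0.0704). LDHB was not called either (edgeR adjusted p = 0.197), but its groups did not overlap. It had 560, 568 and 506 CPM in shSIRT1 cells, against 640, 633 and 587 CPM in NTC. SLC16A3 and P4HA2 (lower) and KDM3A (higher) were among other uncalled members without overlap, KDM3A by only 43.67 against 43.57 CPM at the nearest libraries. The share of all uncalled genes without overlap was not counted, so this is no result about the members. The members took 1.04 ± 0.024% of counts in shSIRT1 and 1.07 ± 0.044% in NTC cells. In a fit with replicate as a block, 12 members were called in FBS, where 11.7% of all genes were, 4.47% higher and 7.22% lower. Of these members 3 were higher (VEGFA, KDM3A, DDIT4) and 9 lower, LDHB, HK1, BNIP3 and SLC16A3 among them. Correlations between libraries did not part replicate numbers 1 and 2 in FBS. Without NTC library 3 there were 4, where 6.41% of all genes were called, and without the libraries numbered 3 of both groups, which leaves the near-identical libraries 1 and 2, there were 16, where 23.8% were. Among the other pathway genes none of 33 in glycolysis and pyruvate metabolism was called, ARNT2 rose (0.68, 1 of 14), and TMEM45A (-1.75), NDRG1 (-0.82) and PLOD1 (-0.25) fell (3 of 36).

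Whether the knockdown difference itself differed between the settings was tested in 1 fit of the 12 FBS and vehicle libraries, as the knockdown change in vehicle minus that in FBS. This test was added after the data had been seen. Of 37 tested members 9 were called, 3 higher and 6 lower, where 13.8% of all genes were called, 7.47% higher and 6.29% lower. LDHB (-1.08, SE 0.0974, adjusted p = 3.92e-05), HK2 (-1.03, SE 0.115, adjusted p = 0.000109), LDHA (-0.70, adjusted p = 0.00661) and PDK1 (-0.60, adjusted p = 0.0112) were lower in knockdown 10 against its NTC than in shSIRT1 against its own. BNIP3L was on the opposite side (0.57, adjusted p = 0.00714). These 5 calls held in all 17 alternative settings. TPI1 (-0.33) and P4HA2 (0.59) lost theirs in 6 and 4 of 17, and SLC16A1 (-0.27) and PFKFB2 (0.28) in most. With the block 20 members were called, where 25.7% of all genes were. CA12, lower in both settings, was not called (0.36, adjusted p = 0.0963), but was with the block (0.35, adjusted p = 0.0231). Serum, the named knockdown, library depth and effective length loss differ together between these settings and cannot be told apart. SIRT1 was 4.71-fold lower in FBS and 2.93-fold lower with vehicle (difference 0.73, adjusted p = 0.00156).

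DHT raised several glycolytic genes in both cell populations. In knockdown 10, 5 of 36 members rose and 3 fell with DHT, where 13.3% of all genes rose, 8.92% fell and 22.2% were called. In NTC 11 rose and 2 fell, where 17.4% rose, 12.5% fell and 29.9% were called. The share of members called was 22.2% in knockdown 10, no more than that of all genes, and 36.1% in NTC. HK2, ENO1, LDHA, LDHB and PFKFB2 rose in both and BNIP3L fell in both by edgeR, and the share of all genes called in both was not counted. By limma, LDHA, LDHB and PFKFB2 were not called in knockdown 10. Of the 15 enzyme genes, 4 rose in knockdown 10 and 7 in NTC. HK2 had 31.8, 18.2 and 20.2 CPM with DHT, against 12.3, 15.5 and 13.3 CPM with vehicle in knockdown 10, and 59.3, 50.7 and 49.8 CPM against 30.4, 28.5 and 31.4 CPM in NTC. The treated libraries all exceeded the untreated ones, and HK2 rose 1.71-fold in knockdown 10 (adjusted p = 0.00155) and 1.77-fold in NTC (adjusted p = 0.00027). ENO1 rose 1.24-fold in knockdown 10 and 1.28-fold in NTC (adjusted p = 0.00129 and 0.000177). LDHA rose 1.45-fold in knockdown 10 and 1.47-fold in NTC (adjusted p = 0.014 and 0.00731). LDHB rose 1.19- and 1.17-fold. In NTC the importer SLC2A1 (0.31), HK1 (0.16), PFKL (0.23), PFKP (0.26), PFKFB3 (0.37) and SLC16A1 (0.18) also rose, while GAPDH did not pass (0.03). Limma did not call SLC16A1, HK1, PFKP or MXI1 in NTC. The NTC call of PFKP was lost in 5 of 11 alternative settings. SLC2A1 did not pass in knockdown 10 by edgeR (adjusted p = 0.0522), but did with the replicate block (0.28, adjusted p = 0.0191). With that block KDM3A (-0.163) and EGLN3 (-0.225) also passed in knockdown 10, where same-numbered libraries pair less clearly.

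BNIP3L ran against the enzymes here as well: with DHT it had 363 ± 15.8 CPM in knockdown 10, against 499 ± 45.01 CPM with vehicle, and 256 ± 10.4 CPM in NTC, against 347 ± 14.6 CPM (SD, n = 3 each; -0.46 and -0.44, adjusted p = 0.000303 and 0.000267). EGLN1 (-0.41) and DDIT4 (-0.38) fell in knockdown 10, and MXI1 (-0.22) in NTC. The counts lean on single libraries. In knockdown 10 only 4 members were called without DHT library 1, the one high for HK2 and LDHA (15.4% of all genes), and LDHA (adjusted p = 0.125) and LDHB (0.12) lost their calls. So did PFKFB2 (0.121) and DDIT4 (0.0552). Only 5 were called without vehicle library 2 (17% of all genes), LDHA (0.0628), LDHB (0.102) and PFKFB2 (0.0666) being lost. In NTC 7 were called without vehicle library 2 (21.4% of all genes) and 8 without DHT library 1 (21% of all genes), against 20 with the replicate block (40.2% of all genes). Without that vehicle library SLC2A1 (0.139), SLC16A1 (0.146), HK1 (0.0555), PFKL (0.0522), PFKP (0.0684), LDHB (0.0883) and MXI1 (0.165) lost their calls. Without that DHT library SLC2A1 (0.125), SLC16A1 (0.179), HK1 (0.0809), LDHB (0.0935) and MXI1 (0.197) did.

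Enzalutamide added to DHT gave the opposite picture. In knockdown 10, 4 members rose and 5 fell with it, relative to DHT alone, where 8.08% of all genes rose, 12.2% fell and 20.3% were called. In NTC 3 rose and 7 fell, where 12.6% rose, 16.6% fell and 29.2% were called. The share of members called was 25% in knockdown 10 and 27.8% in NTC. With the replicate block the NTC count was 19, 7 higher and 12 lower, where 40.3% of all genes were called. These comparisons share the DHT libraries with those of DHT against vehicle, so their opposite signs are no independent finding. HK2 stood at 12.6, 15.9 and 14.8 CPM with enzalutamide, against 31.8, 18.2 and 20.2 CPM with DHT alone in knockdown 10, and at 36.2, 38.5 and 37.4 CPM, against 59.3, 50.7 and 49.8 CPM in NTC. The groups did not overlap, and HK2 was 1.61-fold lower in knockdown 10 (adjusted p = 0.00415) and 1.43-fold lower in NTC (adjusted p = 0.0106). ENO1 fell 1.24- and 1.26-fold, LDHA 1.59- and 1.34-fold and LDHB 1.2- and 1.23-fold in knockdown 10 and NTC. The NTC call of LDHA was lost without any single library (adjusted p = 0.05 to 0.13), and that of HK2 without DHT library 1 (adjusted p = 0.0586). With all libraries LDHA was also not called in NTC by DESeq2 or limma. In all, its call was lost in 8 of 11 alternative settings. In knockdown 10 the call of PFKL (-0.18) was lost without DHT library 1 or 2 or enzalutamide library 2 or 3 (adjusted p = 0.15 to 0.247), and that of LDHB without DHT library 1 or enzalutamide library 2 or 3 (adjusted p = 0.0553 to 0.0941). DDIT4 had 209, 229 and 223 CPM with enzalutamide, against 128, 164 and 142 CPM with DHT alone in knockdown 10, and 238, 196 and 188 CPM, against 150.1, 135 and 148 CPM in NTC. It rose in both, by 0.61 and 0.52 on the log2 scale (adjusted p = 0.000356 and 0.000793), as did BNIP3L (0.39 and 0.45). EGLN1 (0.38) and SLC16A1 (0.23) rose in knockdown 10, and MXI1 (0.30) in NTC, where HK1 (-0.21), PFKL (-0.23) and PFKFB2 (-0.22) fell. In NTC the call of PFKFB2 was lost in 3 of 11 alternative settings and that of MXI1 in 2 of 11. By limma, PFKL and LDHB were not called in knockdown 10.

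**Figure D5:**
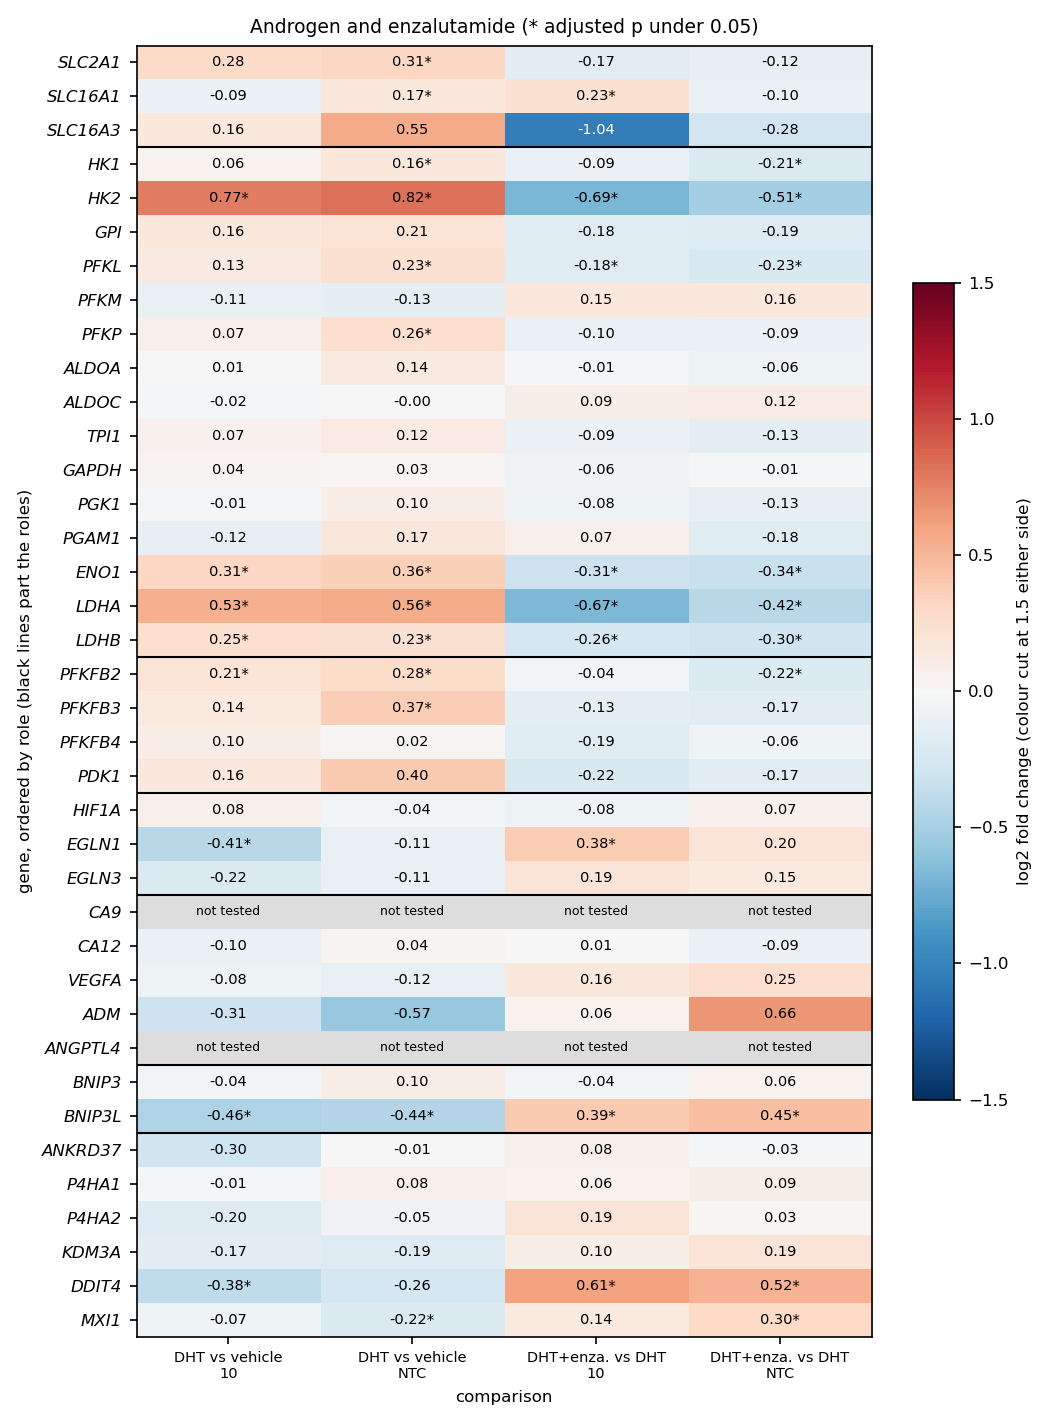
Heat map of log2 fold changes for the 38 genes (rows, ordered by role) under DHT against vehicle and under DHT with enzalutamide against DHT, in knockdown 10 and in NTC (columns). Each cell prints its value, an asterisk marks adjusted p under 0.05 and grey cells were not tested. HK2, ENO1, LDHA and LDHB are red under DHT and blue with enzalutamide in both cell populations, and BNIP3L shows the reverse colours; both pairs of columns share the DHT libraries.

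Among the other pathway genes under DHT, BRP44 (MPC2, a mitochondrial pyruvate carrier subunit) rose (0.94 in knockdown 10 and 1.02 in NTC), and ENO2, the neuronal enolase, fell (-0.64 and -0.56), opposite in direction to ENO1. PDP1, a pyruvate dehydrogenase phosphatase, fell (-0.42 and -0.51). In knockdown 10, 7 of 29 other glycolysis and pyruvate genes, 2 of 14 HIF pathway genes and 10 of 39 other hypoxia targets were called. These are 24.1, 14.3 and 25.6%, beside 22.2% of all genes. In NTC the numbers were 11, 1 and 12 (37.9, 7.14 and 30.8%), beside 29.9% of all genes. C7orf68 (HILPDA, a lipid droplet protein) rose (0.46 and 0.68) and ARNT2 fell (-0.31 and -0.52). With enzalutamide added to DHT, 9 of 29, 1 of 14 and 11 of 39 of these genes were called in knockdown 10 and 9, 1 and 9 in NTC. The shares were 31, 7.14 and 28.2% in knockdown 10 (20.3% of all genes) and 31, 7.14 and 23.1% in NTC (29.2% of all genes). BRP44 was lower (-0.93 and -0.96) and ENO2 higher (0.67 and 0.70) than with DHT alone, while PLOD2 (-2.67) and STC1 (-2.36), hypoxia targets, fell in knockdown 10. PLOD2 had 0.307, 0.262 and 0.360 CPM with enzalutamide, against 4.88, 0.761 and 0.496 CPM with DHT alone, and STC1 0.192, 0.0981 and 0.131 CPM, against 1.77, 0.254 and 0.213 CPM. DHT library 1 stood far above the others, and without it neither passed (log2 fold change -0.995, adjusted p = 0.227 for PLOD2 and -0.72, adjusted p = 0.424 for STC1).

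Cells given DHT with enzalutamide were also set against vehicle-treated cells, and no member passed. In edgeR 0 of 36 members were called in either cell population, where 0.00687% of all genes were called in knockdown 10 (1 gene) and 0% in NTC. At an unadjusted p under 0.05 there were 3 members in each by edgeR, 3 in each by DESeq2, and by limma 1 in knockdown 10 and 2 in NTC, with none called by DESeq2 or limma. The member log2 fold changes ran from -0.87 (SLC16A3) to 0.23 (DDIT4) in knockdown 10 and from -0.07 (LDHB) to 0.31 (HK2) in NTC. A fold that misses the threshold does not show equality: HK2 in NTC had 36.2, 38.5 and 37.4 CPM with DHT and enzalutamide, against 30.4, 28.5 and 31.4 CPM with vehicle, without overlap.

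The hormone effects were also set against each other between cell populations. For DHT, 0 of 36 members had an effect that differed between knockdown 10 and NTC by edgeR, DESeq2 or limma (0.199% of all genes were called by edgeR, 0.0412% higher and 0.158% lower), with 3 members at an unadjusted p under 0.05 by each tool. The difference for HK2 was -0.05 (SE 0.211) and for LDHA -0.03 (SE 0.205). The lowest and highest were SLC16A3 (-0.39) and ADM (0.25). For enzalutamide 0 members were called by edgeR and limma (0.35% of all genes by edgeR, 0.268% higher and 0.0824% lower) and 1, SLC16A1, by DESeq2, with 2, 2 and 3 members at an unadjusted p under 0.05 by edgeR, limma and DESeq2. SLC16A1 had 131, 124 and 129.5 CPM with enzalutamide, against 115, 101 and 110.3 CPM with DHT alone in knockdown 10, and 171, 159 and 159 CPM, against 184, 166 and 173 CPM in NTC. The groups parted in knockdown 10 and overlapped in NTC, and the difference of effects was 0.33 (SE 0.0877, adjusted p = 0.11), or adjusted p = 0.017 with the replicate block, where 3.94% of all genes were called. With the block, EGLN1 (-0.30, adjusted p = 0.0234) and PGAM1 (-0.29, adjusted p = 0.0484) were called in the DHT interaction (2.93% of all genes), where same-numbered libraries pair less clearly.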

How the data were processed

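Per the labels' protocols, total RNA was prepared with TRIzol and made into stranded mRNA libraries. Per the submitters' processing notes, CASAVA 1.8.2, RSEM 1.2.31 and hg19 were used, and the aligner is not given in the sources used here. The deposited files give an RSEM expected count and a TPM for each of 23207 gene symbols, with no coordinates. The authors also deposited an FPKM for each gene, made by RSEM per the file headers, which was not used.

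Expected counts were rounded and tested with edgeR 4.0.16 (TMM, filterByExpr, quasi-likelihood F test, two-sided, Benjamini-Hochberg over all genes tested) on R 4.3.3. The FBS set (6 libraries, 14329 genes) and the CSS set (18 libraries, 14558 genes) were fitted apart, since their sample labels differ in kind. RSEM's effective length loss differs as well (50 bases in FBS, 224 to 252 in CSS). An added fit of 12 libraries (15345 genes) compared their knockdown changes. CPM are TMM-scaled, and deposited TPM compare levels between genes. No adjustment was made across comparisons. Common biological coefficients of variation were 7.83 and 7.79%.

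Alternatives were DESeq2 size factors, DESeq2 1.42.0, no count filter, limma-trend (limma 3.58.1) on log2(TPM + 1), the replicate block and leaving out libraries. The scripts were tested on simulated data. The rule for pairing was that deviations of same-numbered libraries all correlate over 0.1. It was met in FBS (0.168 to 0.392) and in all CSS comparisons but DHT in knockdown 10 and the DHT interaction (lowest 0.091 and 0.021). Differently numbered libraries also exceeded 0.1, in 2 of 6 FBS pairs and 16 of 90 CSS pairs. In FBS, NTC library 2 and shSIRT1 library 1 correlated at 0.182, so the numbers did not part libraries 1 and 2 there. The members and lists were chosen with earlier results of these data known. Members with the largest called changes, HIF1A, SLC2A1 and LDHA are given by library, and of each other list up to 3 called genes.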

Additional observations from a re-analysis of the deposited data

Results flagged for a closer look

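In 9 member genes the knockdown change with vehicle in stripped serum differed from that in FBS medium by a test of the difference itself, in edgeR at an adjusted p under 0.05, where 13.8% of all genes did. The log2 difference, knockdown 10 against NTC with vehicle minus shSIRT1 against NTC in FBS, was -1.08 for LDHB, -1.03 for HK2, -0.70 for LDHA, -0.60 for PDK1, -0.33 for TPI1 and -0.27 for SLC16A1. It was 0.59 for P4HA2, 0.57 for BNIP3L and 0.28 for PFKFB2. Serum, the named knockdown, library depth and effective length loss differ together between these sets and cannot be told apart. SIRT1 itself also differed, with a smaller fall with vehicle than in FBS (0.73, adjusted p = 0.00156).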

How the results depend on the processing

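No member's call reversed direction under any setting: of the fold changes of called members refitted under alternatives 1288 kept their call and 145 lost it, and 122 gains were seen. The median log2 fold change of all genes lay between -0.04 and 0.041 in every setting. The numbers of members called against NTC in stripped serum stayed between 20 and 29 in every setting. Without alternatives they were 23, 25 and 26 with vehicle, DHT and DHT with enzalutamide, where 34.6, 43 and 34.6% of all genes were called. In the other comparisons the share of all genes called moved with the setting too, and is given below for some settings. In FBS the 2 members called (2.71% of all genes) became 1 with limma, 12 with the replicate block (11.7%) and 1 with libraries 1 and 2 summed. They became 1 to 16 when libraries were left out (23.8% of all genes for the 16). For DHT in NTC the 13 (29.9% of all genes) became 20 with the block (40.2%) and 7 to 12 without single libraries (21.4% for the 7). For DHT in knockdown 10 the 8 (22.2% of all genes) became 5 with limma and 4 to 12 without single libraries (15.4% for the 4). For enzalutamide in NTC the 10 (29.2% of all genes) became 19 with the block (40.3%). The interaction with DHT had 2 calls with the block (2.93% of all genes), and that with enzalutamide 1 with the block (3.94%) and 1 with DESeq2. For vehicle minus FBS the 9 (13.8% of all genes) became 20 with the block (25.7%), and 5 to 13 without single libraries. There were 5 without NTC or shSIRT1 library 1 of the FBS set, and 5 without knockdown 10 vehicle library 3. The block ended no call. The cause of these shifts was not tested. Libraries of the FBS set are shallower, at 11894023 to 14196127 counts, and ADM was not tested there, nor CA9 and ANGPTL4 in the FBS or the CSS fit.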
